A study of Mus musculus with 6 samples.

Results

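The 40 genes described here encode the cardiac route for burning fatty acids and its transcriptional regulators. They cover uptake and activation, the carnitine shuttle, the enzymes of the beta-oxidation spiral, electron transfer to ubiquinone, the PPAR and ERR nuclear receptors with their PGC-1 coactivators, and PPAR-responsive genes. They were taken from a given list of symbols that needed at least 10 counts summed over 6 RNA-seq libraries. All 40 passed, from 68 counts for Pparg to 68526 for Lpl, out of 16550 symbols with as many counts and 32245 symbols listed. All 40 also entered the test, among 14378 tested genes. The cells were primary cardiomyocytes from wild type neonatal mouse hearts, in 3 groups of 2 libraries. The BMP2+DM group received BMP2 together with dorsomorphin, the BMP2 group received BMP2, and the PBS group received the buffer. BMP2 is a secreted growth factor that signals through BMP receptors and SMAD proteins, while dorsomorphin, a synthetic compound, blocks the kinase activity of BMP receptors and has a known second target in AMPK, the energy-sensing kinase. Every library with dorsomorphin also received BMP2, and its dose and duration were not stated in the labels. Whether the replicates were separate cultures or separate animals is not stated, and p-values therefore cover the spread between these samples alone.

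Fatty acids enter the cardiomyocyte through membrane transporters, are bound by a cytosolic carrier and are joined to coenzyme A. As acylcarnitines they cross the mitochondrial membranes, and the spiral then shortens them by steps of dehydrogenation, hydration, a second dehydrogenation and thiolysis, passing electrons to the respiratory chain. The newborn heart is known for a shift of fuel from glucose and lactate towards fatty acids, in which PPAR alpha, the estrogen-related receptors (ERR) and the coactivator PGC-1 alpha raise transcription of the enzyme genes.

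Counts on genes ran from 10106667 to 14366042 a library. The libraries PBS 1 and BMP2 1 stood apart in a measure of RNA makeup: models of ribosomal repeats took 2.10% of gene counts in BMP2 1 and 1.31% in PBS 1, against 0.0702% to 0.0928% in the other 4. Lead counts are therefore also given without both. All 10 cardiomyocyte markers were detected, with a summed level of 29659 and 29971 CPM (counts scaled to library depth) in the BMP2+DM libraries, 27072 and 26848 CPM in the BMP2 libraries and 35182 and 34666 CPM in the PBS libraries. Fibroblast markers were detected as well, 10 of 10, at a summed 12473 to 15182 CPM, so the cultures also held transcripts of other cell types. Adipocyte markers were near 0: Lep, Cidec and Ucp1 had no count in any library, and the sum of the 8 markers was at most 1.94 CPM. In bulk RNA, fewer cells of a type and less RNA per cell cannot be told apart.

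By fold change, 30 of the 40 genes were higher with BMP2 than with PBS (50.7% of all tested genes), and 37 were higher with BMP2 and dorsomorphin than with BMP2 (50.1% of all). In BMP2+DM against PBS, 27 members rose and 1 fell (edgeR's quasi-likelihood test with Benjamini-Hochberg adjustment over all tested genes, threshold 0.05). Of all tested genes, 9.38% rose and 11.5% fell in that comparison. The median log2 fold change of the members was 0.43, beside 0.0070 for all tested genes, and 37 of 40 were above 0, beside 50.9% of all. In BMP2+DM against BMP2, 16 members rose and 0 fell, where 4.28% of all tested genes rose and 4.44% fell. At an unadjusted p under 0.05, 1 member was lower, and DESeq2 called 0 lower. The median was 0.27, beside 3e-04 for all tested genes. In BMP2 against PBS, 13 members rose and 2 fell, where 6.55% of all tested genes rose and 9.29% fell. The median was 0.19, beside 0.0044. The comparisons share libraries, so their counts are not separate evidence.

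The libraries of BMP2+DM lay wholly above those of PBS for 34 members and wholly below for 2, beside 29% and 29.5% of all tested genes. They lay wholly above those of BMP2 for 30 and below for 1 (25.4% and 24.9% of all). The BMP2 libraries lay wholly above PBS for 26 and below for 6 (27.9% and 28% of all). Summed over the 40 genes, the level was 5941 and 6005 CPM in the BMP2+DM libraries, 5060 and 4956 CPM in the BMP2 libraries and 4394 and 4460 CPM in the PBS libraries, so no group overlapped another.

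Without PBS 1 and BMP2 1 together, BMP2 and PBS keep 1 library each, which is then assumed to vary like the BMP2+DM pair. In that fit 14 members rose in BMP2+DM against PBS, 6 in BMP2+DM against BMP2 and 2 in BMP2 against PBS, and none fell. The members that rose against PBS were Cd36, Fabp3, Lpl, Acsl1, Cpt1a, Cpt1b, Cpt2, Acads, Acadvl, Hadhb, Eci1, Etfdh, Ppara and Esrra. Those that rose against BMP2 were Cd36, Fabp3, Lpl, Cpt1a, Acadl and Acaa2, and the pair that rose with BMP2 alone was Fabp3 and Acsl1. The medians were 0.46, 0.26 and 0.19, beside 0.43, 0.27 and 0.19 with all libraries. Single members moved more, such as Etfa at 0.21 (0.31 with all libraries) in BMP2+DM against PBS and Plin5 at 1.38 (1.74) in BMP2 against PBS. With 1 library left out at a time, the members higher in BMP2+DM against BMP2 numbered 8 without BMP2 1 and 9 without BMP2 2, and those higher in BMP2 against PBS numbered 8 without BMP2 1 and 6 without BMP2 2. Of the members called lower with all libraries, Angptl4 and Ucp2 in BMP2 against PBS kept the call in 6 of 6 and 4 of 6 fits without 1 library. Pparg in BMP2+DM against PBS kept it in 3 of 6. Without PBS 1 and BMP2 1 together none of these was called, at log2 fold changes of −0.56 for Angptl4, −0.83 for Ucp2 and −2.77 for Pparg.

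**Figure D1:**
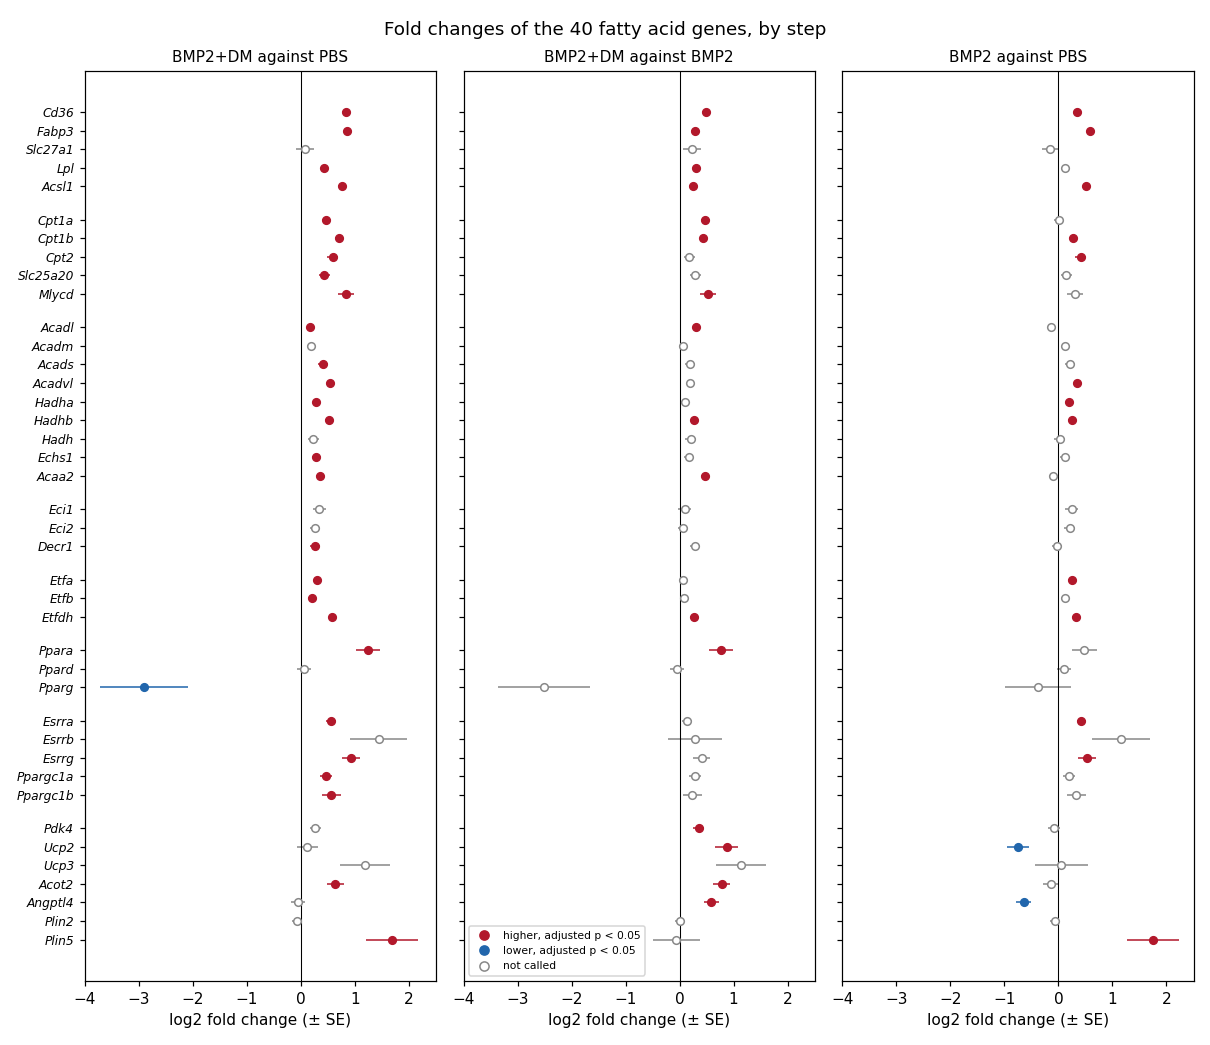
Log2 fold change with its standard error for each of the 40 genes, ordered by step from uptake at the top to responsive genes at the bottom, in the 3 comparisons; filled points passed adjusted p under 0.05. Filled red points number 27, 16 and 13 from left to right, and the blue points are Pparg on the left and Ucp2 and Angptl4 on the right.

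Most uptake and activation genes rose in each of the 3 comparisons. Of 5 members, 4 rose in BMP2+DM against PBS, 4 in BMP2+DM against BMP2 and 3 in BMP2 against PBS, and none fell. In each sentence of library values, replicate 1 comes before replicate 2. Cd36, the membrane fatty acid translocase (chromosome 5, 17781690 to 17888801, minus strand, GRCm38), had 167 and 167 CPM in the BMP2+DM libraries, 119 and 120.1 CPM in the BMP2 libraries and 94.5 and 93.0 CPM in the PBS libraries. The 3 groups form separate steps with almost no spread inside a group. The gene rose in BMP2+DM against PBS (log2 fold change 0.84 ± 0.070, edgeR adjusted p = 9.47e-08), in BMP2+DM against BMP2 (0.48 ± 0.070, adjusted p = 0.000193) and in BMP2 against PBS (0.35 ± 0.071, adjusted p = 0.00196). Fabp3, the heart-type carrier of fatty acids in the cytosol, had 505 and 493 CPM in the BMP2+DM libraries, 433 and 391 CPM in the BMP2 libraries and 289.5 and 259 CPM in the PBS libraries. Again no library of a group overlapped another group. Its log2 fold change was 0.86 ± 0.058, adjusted p = 5.61e-09 in BMP2+DM against PBS, 0.28 ± 0.058, adjusted p = 0.00482 in BMP2+DM against BMP2 and 0.59 ± 0.058, adjusted p = 1.24e-06 in BMP2 against PBS. The rise over BMP2 was lost without BMP2 2 (adjusted p = 0.110). Of the 50-base words in Fabp3 transcripts, 29.2% also occur in other genes, chiefly the pseudogene Fabp3-ps1.

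Acsl1, the long-chain acyl-CoA synthetase that activates fatty acids, had 205 and 215 CPM in the BMP2+DM libraries, 179.8 and 176 CPM in the BMP2 libraries and 128 and 121 CPM in the PBS libraries. The PBS libraries were lowest and the BMP2+DM libraries highest, without overlap. Acsl1 rose in BMP2+DM against PBS (log2 fold change 0.76 ± 0.065, edgeR adjusted p = 1.29e-07) and in BMP2 against PBS (0.52 ± 0.065, adjusted p = 1.94e-05). The smaller rise over BMP2 (0.24 ± 0.064, adjusted p = 0.0248) was lost without BMP2 1, BMP2 2, BMP2+DM 1 or BMP2+DM 2 (adjusted p = 0.0511 to 0.154). Lpl, the lipase that frees fatty acids from circulating triglycerides, had 1222 and 1179.6 CPM in the BMP2+DM libraries, 1001 and 949 CPM in the BMP2 libraries and 874 and 921 CPM in the PBS libraries. The groups did not overlap here either, and the wider gap lay between BMP2+DM and BMP2. Lpl rose in BMP2+DM against PBS (0.42 ± 0.054, adjusted p = 1.50e-05) and against BMP2 (0.30 ± 0.054, adjusted p = 0.00136), and was not called in BMP2 against PBS (0.12 ± 0.054, adjusted p = 0.152). Slc27a1, a fatty acid transport protein, was the exception of the step, with 22.8 and 31.7 CPM in the BMP2+DM libraries, 24.6 and 22.1 CPM in the BMP2 libraries and 27.6 and 24.1 CPM in the PBS libraries and no call.

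The promoters of Cd36 and Fabp3, for which the 3 groups lay in separate steps, are shown. Other members lay in such steps too, such as Acadvl, with a marked site in its promoter, and Hadhb, with none. Whether sites go with this pattern was not tested. Windows run from 250 bases before to 50 after the transcription start, from RefSeq on GRCm38.p6 (mm10), 5′ to 3′ on the gene's strand. Capitals mark AGGTCA, the core recognised by PPAR and ERR receptors, or its complement TGACCT in Cd36 (chr5:17835847-17836146, minus strand), and GGCGCC, an element known to bind BMP-activated SMAD proteins, in Fabp3 (chr4:130308488-130308787, plus strand). The Cd36 match begins 228 bases before the start, and the Fabp3 match 157 bases before it. The Cd36 window lies inside the GENCODE span of the gene, which reaches 17888801. Which start these cells used was not tested.
Cd36: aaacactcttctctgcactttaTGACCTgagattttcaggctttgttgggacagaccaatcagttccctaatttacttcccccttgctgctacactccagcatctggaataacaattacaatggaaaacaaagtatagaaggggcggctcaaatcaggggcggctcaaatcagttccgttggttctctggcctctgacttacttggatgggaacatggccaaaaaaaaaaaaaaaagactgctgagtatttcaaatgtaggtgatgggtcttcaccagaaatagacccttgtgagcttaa
Fabp3: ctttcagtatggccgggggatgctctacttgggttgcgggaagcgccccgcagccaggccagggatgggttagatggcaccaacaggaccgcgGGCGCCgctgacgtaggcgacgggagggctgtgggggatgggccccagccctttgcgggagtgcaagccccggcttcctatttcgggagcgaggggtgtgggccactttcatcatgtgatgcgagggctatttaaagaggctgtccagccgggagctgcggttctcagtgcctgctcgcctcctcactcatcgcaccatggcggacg

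**Figure D2:**
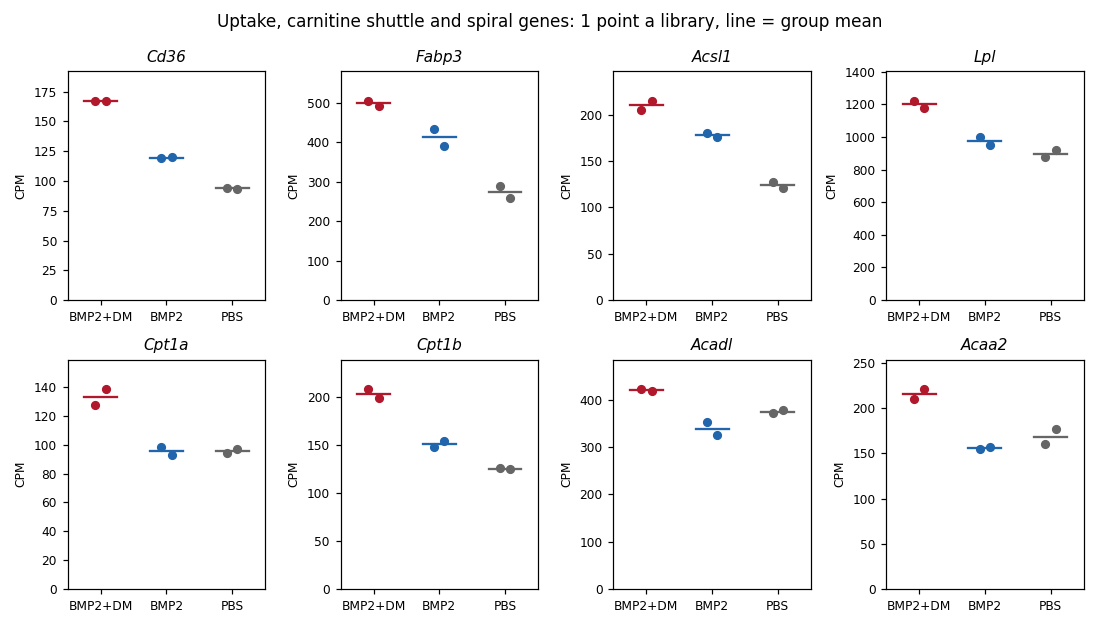
CPM of 8 uptake, carnitine shuttle and spiral genes in each library, 1 point a library with a line at the group mean; axes start at 0. Cd36, Fabp3, Acsl1, Lpl and Cpt1b fall into 3 separate steps with PBS lowest and BMP2+DM highest. For Cpt1a the BMP2 and PBS libraries overlap below BMP2+DM. For Acadl and Acaa2 the BMP2 libraries lie lowest and the BMP2+DM libraries highest.

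All 5 carnitine shuttle genes rose in BMP2+DM against PBS. Against BMP2, 3 of 5 rose, and in BMP2 against PBS 2 of 5 rose. Cpt1b encodes the muscle-type carnitine palmitoyltransferase of the outer mitochondrial membrane, the step that commits fatty acids to oxidation (chromosome 15, 89416405 to 89425863, minus strand, GRCm38). It had 207 and 199 CPM in the BMP2+DM libraries, 147 and 154 CPM in the BMP2 libraries and 125 and 124 CPM in the PBS libraries. The groups did not overlap. The gene rose in BMP2+DM against PBS (log2 fold change 0.70 ± 0.066, edgeR adjusted p = 3.59e-07), in BMP2+DM against BMP2 (0.43 ± 0.065, adjusted p = 0.000282) and in BMP2 against PBS (0.27 ± 0.066, adjusted p = 0.00903), where the call was lost without PBS 2 or BMP2 2 (adjusted p = 0.0580 to 0.0926). The annotation places 81.4% of Cpt1b exon bases inside the same-strand model Gm44502, and no source used here states how shared reads were assigned.

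Cpt1a, the liver-type isoform that is prominent in the fetal and newborn heart, had 128 and 139 CPM in the BMP2+DM libraries, 98.5 and 93.1 CPM in the BMP2 libraries and 94.6 and 96.9 CPM in the PBS libraries. Its BMP2 and PBS libraries overlapped, and both BMP2+DM libraries lay above them. Cpt1a rose in BMP2+DM against PBS (0.48 ± 0.079, adjusted p = 0.000236) and against BMP2 (0.47 ± 0.079, adjusted p = 0.000745), beside 0.0014 ± 0.080, adjusted p = 0.995 in BMP2 against PBS. Per kilobase of exon, Cpt1b stood above Cpt1a in every library, by a ratio of levels of 3.69 and 3.25 in BMP2+DM, 3.39 and 3.74 in BMP2 and 3.01 and 2.91 in PBS. The ratio was lowest in the PBS libraries, and the BMP2+DM and BMP2 libraries overlapped.

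Cpt2, the inner membrane transferase that reforms acyl-CoA, had 70.9 and 63.0 CPM in the BMP2+DM libraries, 58.8 and 59.6 CPM in the BMP2 libraries and 46.0 and 42.9 CPM in the PBS libraries. The PBS libraries lay apart below the rest. It rose in BMP2+DM against PBS (log2 fold change 0.59 ± 0.10, edgeR adjusted p = 0.000476) and in BMP2 against PBS (0.41 ± 0.11, adjusted p = 0.0114), the second of these lost without PBS 2, BMP2 1 or BMP2 2 (adjusted p = 0.0570 to 0.103). Mlycd encodes malonyl-CoA decarboxylase, which removes the inhibitor of the outer membrane transferase. It had 27.4 and 32.7 CPM in the BMP2+DM libraries, 21.3 and 20.4 CPM in the BMP2 libraries and 15.9 and 17.8 CPM in the PBS libraries. The BMP2+DM libraries were highest. Mlycd rose in BMP2+DM against PBS (0.83 ± 0.15, adjusted p = 0.000593) and against BMP2 (0.53 ± 0.15, adjusted p = 0.0357), the second lost without PBS 1, PBS 2, BMP2 1, BMP2 2 or BMP2+DM 2 (adjusted p = 0.0507 to 0.265) and with DESeq2 in place of edgeR (adjusted p = 0.0754). Slc25a20, the carnitine-acylcarnitine carrier, rose in BMP2+DM against PBS alone (0.43 ± 0.10, adjusted p = 0.00561), a call lost without BMP2+DM 2 (adjusted p = 0.0573).

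The Cpt1a promoter (chr19:3323051-3323350, plus strand) is shown as that of a gene called in BMP2+DM against BMP2 and not in BMP2 against PBS. The complement TGACCT in capitals begins 94 bases before the start. Other members with a window had the same calls. Of these, the windows of Acadl, Acot2, Mlycd and Pdk4 held none of the motifs searched, and that of Ppara held GGCGCC alone. Whether the site goes with these calls was not tested.
Cpt1a: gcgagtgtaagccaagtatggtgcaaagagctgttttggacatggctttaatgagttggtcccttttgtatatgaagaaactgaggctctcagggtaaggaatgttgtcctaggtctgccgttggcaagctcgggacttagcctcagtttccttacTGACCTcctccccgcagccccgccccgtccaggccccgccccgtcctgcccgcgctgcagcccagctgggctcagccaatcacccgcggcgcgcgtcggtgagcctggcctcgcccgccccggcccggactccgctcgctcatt

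Of the 9 spiral enzymes, 7 rose in BMP2+DM against PBS, 3 in BMP2+DM against BMP2 and 3 in BMP2 against PBS, with no fall. Acadvl, the very long-chain acyl-CoA dehydrogenase, had 290.3 and 312 CPM in the BMP2+DM libraries, 256 and 269.9 CPM in the BMP2 libraries and 198 and 217 CPM in the PBS libraries. The groups lay in steps without overlap, PBS lowest. It rose in BMP2+DM against PBS (log2 fold change 0.54 ± 0.061, edgeR adjusted p = 3.68e-06) and in BMP2 against PBS (0.34 ± 0.061, adjusted p = 0.000644), and just missed in BMP2+DM against BMP2 (0.20 ± 0.061, adjusted p = 0.0538), where it passed with no filter on low counts (adjusted p = 0.0131) and with 2 groups only (adjusted p = 0.0432). Of its exon bases, 42.9% overlap Dvl2 on the opposite strand, and without a stated strand setting the reads of both cannot be told apart. Hadhb, the thiolase subunit of the mitochondrial trifunctional protein, had 259 and 288 CPM in the BMP2+DM libraries, 229 and 224 CPM in the BMP2 libraries and 189 and 195 CPM in the PBS libraries. Its groups also lay in steps, with BMP2+DM highest. Its log2 fold change was 0.51 ± 0.061, adjusted p = 6.88e-06 in BMP2+DM against PBS, 0.27 ± 0.061, adjusted p = 0.00823 in BMP2+DM against BMP2 and 0.24 ± 0.062, adjusted p = 0.0113 in BMP2 against PBS. The call over BMP2 was lost without BMP2 1, BMP2 2 or BMP2+DM 2 (adjusted p = 0.0542 to 0.124), and the call of BMP2 over PBS without PBS 1, BMP2 1 or BMP2 2 (adjusted p = 0.0540 to 0.0898).

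Hadha, the partner subunit, had 438 and 441 CPM in the BMP2+DM libraries, 411 and 414 CPM in the BMP2 libraries and 348 and 375 CPM in the PBS libraries. It rose in BMP2+DM against PBS (0.28 ± 0.048, adjusted p = 0.000291) and in BMP2 against PBS (0.19 ± 0.048, adjusted p = 0.00997), the second lost without PBS 1, BMP2 1 or BMP2 2 (adjusted p = 0.0792 to 0.136). Per kilobase, the level of Hadhb over that of Hadha was 0.782 and 0.865 in BMP2+DM, 0.737 and 0.717 in BMP2 and 0.718 and 0.686 in PBS. The BMP2+DM libraries had the highest ratios of these subunit transcripts. A share of 19.7% of Hadhb 50-base words also occurs in other genes, chiefly Gm13910.

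Acaa2, the mitochondrial ketoacyl-CoA thiolase, had 210.1 and 221 CPM in the BMP2+DM libraries, 155 and 158 CPM in the BMP2 libraries and 160.3 and 177 CPM in the PBS libraries. Acadl, the long-chain acyl-CoA dehydrogenase, had 422 and 418 CPM in the BMP2+DM libraries, 353 and 324 CPM in the BMP2 libraries and 371 and 379 CPM in the PBS libraries. For both genes BMP2 was the lowest group and BMP2+DM the highest, without overlap. Acaa2 rose in BMP2+DM against BMP2 (0.46 ± 0.067, adjusted p = 0.000202) and against PBS (0.35 ± 0.067, adjusted p = 0.000796), beside −0.11 ± 0.067, adjusted p = 0.316 in BMP2 against PBS. Acadl rose in BMP2+DM against BMP2 (0.31 ± 0.050, adjusted p = 0.000573). Its difference of −0.15 in BMP2 against PBS did not pass (adjusted p = 0.0561), but passed without BMP2+DM 1 (−0.15, adjusted p = 0.0486) or BMP2+DM 2 (−0.15, adjusted p = 0.0490) and with 2 groups only (adjusted p = 0.0491). The rise of Acadl over PBS (0.16 ± 0.050, adjusted p = 0.0267) was lost without PBS 1, PBS 2, BMP2+DM 1 or BMP2+DM 2 (adjusted p = 0.0722 to 0.143) and with DESeq2 (adjusted p = 0.0594).

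Acads, the short-chain dehydrogenase, rose in BMP2+DM against PBS alone (log2 fold change 0.41 ± 0.091, edgeR adjusted p = 0.00329). Echs1, the enoyl-CoA hydratase, did likewise (0.29 ± 0.083, adjusted p = 0.0196), a call lost without PBS 1, PBS 2, BMP2+DM 1 or BMP2+DM 2 (adjusted p = 0.0614 to 0.116). Acadm, the medium-chain dehydrogenase, was called nowhere, with 182 and 176 CPM in the BMP2+DM libraries, 175 and 169 CPM in the BMP2 libraries and 161 and 155 CPM in the PBS libraries and 0.18 ± 0.064, adjusted p = 0.0507 in BMP2+DM against PBS. Hadh, the short-chain hydroxyacyl-CoA dehydrogenase, was not called either, with 92.6 and 116 CPM in the BMP2+DM libraries, 93.4 and 86.9 CPM in the BMP2 libraries and 91.9 and 85.1 CPM in the PBS libraries. Only BMP2+DM 2 stood high for Hadh, and without BMP2+DM 1 its log2 fold change passed against PBS (0.38, adjusted p = 0.0167) and against BMP2 (0.35, adjusted p = 0.0498).

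Promoters of Acadvl and Hadhb are shown, since these had the smallest p of the spiral. In Acadvl (chr11:70015379-70015678, minus strand) AGGTCA, in capitals, begins 87 bases before the start. The Hadhb window (chr5:30155003-30155302, plus strand) held none of the motifs searched, so it has no capitals. Hadha starts 273 bases away on the opposite strand, and the windows of both genes share 228 bases.
Acadvl: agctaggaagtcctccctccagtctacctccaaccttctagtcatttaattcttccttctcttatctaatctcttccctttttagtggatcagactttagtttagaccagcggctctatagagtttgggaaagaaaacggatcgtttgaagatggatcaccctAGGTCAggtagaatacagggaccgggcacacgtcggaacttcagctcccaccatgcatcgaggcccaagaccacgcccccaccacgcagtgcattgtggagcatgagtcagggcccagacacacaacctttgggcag
Hadhb: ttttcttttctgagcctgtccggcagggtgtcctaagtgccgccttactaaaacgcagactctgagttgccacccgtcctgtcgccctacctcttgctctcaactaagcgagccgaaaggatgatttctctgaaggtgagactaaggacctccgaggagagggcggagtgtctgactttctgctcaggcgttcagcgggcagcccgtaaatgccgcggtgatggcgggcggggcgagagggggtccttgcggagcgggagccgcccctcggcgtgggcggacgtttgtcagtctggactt

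The auxiliary enzymes Eci1, Eci2 and Decr1 let the spiral handle unsaturated fatty acids, and 1 of 3 rose in BMP2+DM against PBS. Decr1, the dienoyl-CoA reductase, had 90.2 and 87.8 CPM in the BMP2+DM libraries, 77.4 and 68.1 CPM in the BMP2 libraries and 72.8 and 75.2 CPM in the PBS libraries. The BMP2+DM libraries were highest, and the other groups overlapped. Its rise over PBS (log2 fold change 0.27 ± 0.091, edgeR adjusted p = 0.0460) was lost without PBS 1, PBS 2, BMP2+DM 1 or BMP2+DM 2 (adjusted p = 0.107 to 0.194) and with DESeq2 (adjusted p = 0.0790). Decr1 passed in BMP2+DM against BMP2 with no filter on low counts (adjusted p = 0.0332). The isomerase Eci1 was at 0.34 ± 0.12, adjusted p = 0.0532 in BMP2+DM against PBS, and passed without PBS 1 (0.54, adjusted p = 0.0127) and with no filter (adjusted p = 0.0184). In BMP2 against PBS it was at 0.25 ± 0.12, adjusted p = 0.190, and passed without PBS 1 as well (0.45, adjusted p = 0.0432). PBS 1 had 55.6 CPM of Eci1, against 42.7 CPM in PBS 2. Eci2 was at 0.26 ± 0.094, adjusted p = 0.0550 in BMP2+DM against PBS and was not called, but passed with no filter (adjusted p = 0.0400).

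All 3 genes that carry electrons from the dehydrogenases to ubiquinone rose in BMP2+DM against PBS, and 2 of 3 rose in BMP2 against PBS. Etfdh, the membrane oxidoreductase that hands the electrons on, had 204 and 197 CPM in the BMP2+DM libraries, 166 and 169 CPM in the BMP2 libraries and 138 and 131 CPM in the PBS libraries. No groups overlapped. Etfdh rose in BMP2+DM against PBS (log2 fold change 0.58 ± 0.065, edgeR adjusted p = 3.04e-06), in BMP2+DM against BMP2 (0.26 ± 0.064, adjusted p = 0.0152) and in BMP2 against PBS (0.32 ± 0.065, adjusted p = 0.00205). The call over BMP2 was lost without BMP2 1, BMP2 2 or BMP2+DM 1 (adjusted p = 0.0802 to 0.103). Etfa, the alpha subunit of electron transfer flavoprotein, had 203 and 194 CPM in the BMP2+DM libraries, 184 and 195 CPM in the BMP2 libraries and 149 and 171 CPM in the PBS libraries. Its BMP2+DM and BMP2 libraries overlapped and lay above PBS. Etfa rose in BMP2+DM against PBS (0.31 ± 0.072, adjusted p = 0.00461), lost without PBS 1 (adjusted p = 0.0895), and in BMP2 against PBS (0.24 ± 0.072, adjusted p = 0.0260), lost without PBS 1, BMP2 1 or BMP2 2 (adjusted p = 0.0513 to 0.283). Etfb, the beta subunit, had 136 and 144 CPM in the BMP2+DM libraries, 133 and 129.9 CPM in the BMP2 libraries and 122 and 119 CPM in the PBS libraries. BMP2+DM was highest and PBS lowest, with small gaps, and the rise over PBS (0.21 ± 0.071, adjusted p = 0.0418) was lost without PBS 1, PBS 2, BMP2 1, BMP2 2, BMP2+DM 1 or BMP2+DM 2 (adjusted p = 0.0506 to 0.224), with DESeq2 (adjusted p = 0.0740) and with 2 groups only (adjusted p = 0.0556). For Etfb, 53.0% of exon bases lie within the same-strand model Gm45233.

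Among the receptors, Ppara and Pparg moved in opposite directions in BMP2+DM against PBS, and Ppard was not called. Ppara encodes PPAR alpha, the fatty acid-activated receptor best known for control of oxidation genes in heart and liver (chromosome 15, 85734983 to 85802819, plus strand, GRCm38). It had 16.4 and 13.1 CPM in the BMP2+DM libraries, 9.09 and 8.21 CPM in the BMP2 libraries and 5.50 and 6.96 CPM in the PBS libraries. BMP2+DM was highest and PBS lowest, without overlap. Ppara rose in BMP2+DM against PBS (log2 fold change 1.25 ± 0.22, edgeR adjusted p = 0.000473), the greatest called rise of a member after that of Plin5. It also rose in BMP2+DM against BMP2 (0.77 ± 0.22, adjusted p = 0.0344), a call lost without BMP2 1, BMP2 2 or BMP2+DM 1 (adjusted p = 0.111 to 0.238) and with DESeq2 (adjusted p = 0.0888). In BMP2 against PBS it was at 0.48 ± 0.23, adjusted p = 0.183.

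Pparg encodes PPAR gamma, known as the regulator of fat cell differentiation (chromosome 6, 115360951 to 115490399, plus strand, GRCm38). It had few counts: 2 and 2 in the BMP2+DM libraries, 15 and 10 for BMP2, and 23 and 16 for PBS. Both BMP2+DM libraries lay below all others. The group ratio of depth-scaled counts was 0.127 in BMP2+DM over PBS (95% exact interval 0.0329 to 0.351) and 0.167 over BMP2 (0.0421 to 0.482), intervals that cover counting error only. It fell in BMP2+DM against PBS (−2.90 ± 0.81, adjusted p = 0.0164), a call lost without PBS 1, BMP2+DM 1 or BMP2+DM 2 (adjusted p = 0.0805 to 0.0823). It was not called in BMP2+DM against BMP2 (−2.52 ± 0.85, adjusted p = 0.0768) or in BMP2 against PBS (−0.39 ± 0.61, adjusted p = 0.743). Of 8 adipocyte markers, Lep, Cidec and Ucp1 were at 0, and 1 was tested, with no call. The 8 summed to 1.065 and 1.94 CPM in the BMP2+DM libraries. Their sum was 1.27 and 0.0955 CPM in the BMP2 libraries and 0.429 and 0.696 CPM in the PBS libraries. Endothelial markers summed to 225 and 243 CPM in the BMP2+DM libraries. They summed to 363 and 360 CPM in the BMP2 libraries and 405 and 413 CPM in the PBS libraries. Of the 10 endothelial markers, 7 fell and 0 rose in BMP2+DM against PBS, and 4 fell without BMP2+DM 1 or without PBS 1 and BMP2 1 together. Their part in the level of Pparg was not tested.

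Ppard, the widely expressed PPAR delta, had 33.5 and 40.6 CPM in the BMP2+DM libraries, 39.6 and 36.8 CPM in the BMP2 libraries and 37.3 and 33.4 CPM in the PBS libraries. The groups overlapped, and none of its log2 fold changes, from −0.043 in BMP2+DM against BMP2 to 0.11 in BMP2 against PBS, passed the test. Per kilobase, Ppara stood at 0.957 and 0.633 of the level of Ppard in BMP2+DM, at 0.450 and 0.438 in BMP2 and at 0.289 and 0.408 in PBS. The BMP2+DM libraries held the highest ratios, with no overlap between groups.

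Of the ERR receptors and PGC-1 coactivators, 4 of 5 rose in BMP2+DM against PBS, 0 in BMP2+DM against BMP2 and 2 in BMP2 against PBS. Without any adjustment, 2 of the 5 had p under 0.05 in BMP2+DM against BMP2. Esrra encodes ERR alpha, an orphan receptor that acts on genes of oxidative metabolism (chromosome 19, 6910977 to 6921813, minus strand, GRCm38). It had 95.6 and 108 CPM in the BMP2+DM libraries, 89.8 and 94.6 CPM in the BMP2 libraries and 70.5 and 66.9 CPM in the PBS libraries. The PBS libraries lay below the others. Esrra rose in BMP2+DM against PBS (log2 fold change 0.56 ± 0.089, edgeR adjusted p = 0.000151) and in BMP2 against PBS (0.42 ± 0.090, adjusted p = 0.00285), and was at 0.14 ± 0.089, adjusted p = 0.388 in BMP2+DM against BMP2.

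Esrrg encodes ERR gamma, which is known for its role in the perinatal switch to oxidative metabolism in the mouse heart. It had 24.7 and 32.8 CPM in the BMP2+DM libraries, 21.1 and 22.2 CPM in the BMP2 libraries and 14.4 and 15.8 CPM in the PBS libraries. The groups did not overlap. The gene rose in BMP2+DM against PBS (log2 fold change 0.93 ± 0.16, edgeR adjusted p = 0.000434) and in BMP2 against PBS (0.52 ± 0.17, adjusted p = 0.0403), the second lost without PBS 1, PBS 2, BMP2 1 or BMP2 2 (adjusted p = 0.110 to 0.218) and with DESeq2 (adjusted p = 0.0813). Ppargc1a, which encodes PGC-1 alpha, had 51.1 and 54.0 CPM in the BMP2+DM libraries, 42.3 and 44.6 CPM in the BMP2 libraries and 38.3 and 37.3 CPM in the PBS libraries. Its groups also lay in 3 steps without overlap. Ppargc1a rose in BMP2+DM against PBS (0.47 ± 0.11, adjusted p = 0.00475), with 0.28 ± 0.11, adjusted p = 0.146 in BMP2+DM against BMP2 and 0.20 ± 0.11, adjusted p = 0.268 in BMP2 against PBS.

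Ppargc1b, which encodes PGC-1 beta, had 17.7 and 22.3 CPM in the BMP2+DM libraries, 18.1 and 15.8 CPM in the BMP2 libraries and 13.2 and 13.8 CPM in the PBS libraries. PBS was lowest, and the other groups overlapped. Its rise over PBS (log2 fold change 0.57 ± 0.17, edgeR adjusted p = 0.0270) was lost without PBS 1, PBS 2 or BMP2+DM 2 (adjusted p = 0.0937 to 0.242) and with DESeq2 (adjusted p = 0.0647). Esrrb, which encodes ERR beta and is best known from stem cells and the inner ear, had 28 and 38 counts in the BMP2+DM libraries, 16 and 40 for BMP2, and 18 and 12 for PBS. At 1.44 ± 0.53, adjusted p = 0.0636 in BMP2+DM against PBS it was not called, but it passed without BMP2 1 (1.44, adjusted p = 0.0356) or BMP2 2 (1.44, adjusted p = 0.0493), with 2 groups only (adjusted p = 0.0455) and with no filter (adjusted p = 0.0212).

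Levels per kilobase order the regulators. Esrra was the highest, with 21.8 and 24.6 CPM per kb in the BMP2+DM libraries, 20.5 and 21.6 CPM per kb in the BMP2 libraries and 16.1 and 15.2 CPM per kb in the PBS libraries. Ppargc1a followed, with 7.75 and 8.20 CPM per kb in the BMP2+DM libraries, 6.41 and 6.76 CPM per kb in the BMP2 libraries and 5.81 and 5.67 CPM per kb in the PBS libraries. Esrrb and Pparg were lowest, at 0.448 and 0.611 CPM per kb for Esrrb and 0.0656 and 0.0658 CPM per kb for Pparg in the BMP2+DM libraries, against 0.173 to 0.213 CPM per kb for Esrrb and 0.472 to 0.557 CPM per kb for Pparg in the PBS libraries. The order of Esrrb and Pparg thus differed between BMP2+DM and PBS. It also differed between the BMP2 libraries, with 0.241 and 0.632 CPM per kb for Esrrb and 0.462 and 0.323 CPM per kb for Pparg. This order rests on 12 to 40 counts a library for Esrrb and 2 to 23 for Pparg. The change of Esrrb between BMP2+DM and PBS was not called. Over all 40 members, Fabp3 was highest per kilobase, with a mean level of 606 CPM per kb in BMP2+DM, 501 in BMP2 and 333 in PBS, and Acadl was next, with 209 in BMP2+DM, 169 in BMP2 and 187 in PBS.

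**Figure D3:**
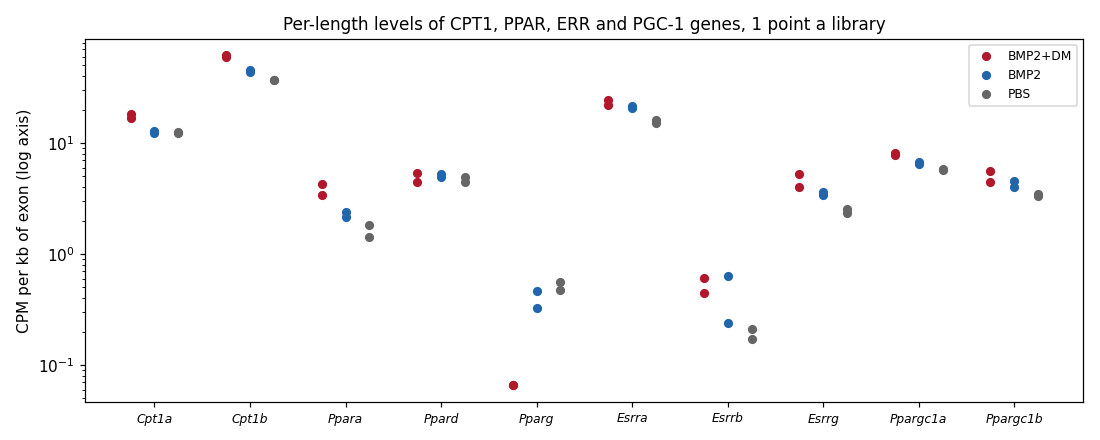
Level in CPM per kb of exon, on a log axis, of the Cpt1, PPAR, ERR and PGC-1 genes, 1 point a library. Cpt1b lies above Cpt1a and Esrra above the other receptors in every library, and the BMP2+DM points of Pparg, at 0.0656 and 0.0658 CPM per kb, lie below all others.

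Promoters of Ppara (chr15:85735526-85735825, plus strand) and Esrra (chr19:6921759-6922058, minus strand) are shown as those with the smallest p among the PPAR genes and among the ERR and PGC-1 genes. The 4 RefSeq windows of Esrrg, whose p was also below that of Ppara, held none of the motifs searched. Capitals mark GGCGCC, which begins 187 bases before the Ppara start and 91 bases before the Esrra start.
Ppara: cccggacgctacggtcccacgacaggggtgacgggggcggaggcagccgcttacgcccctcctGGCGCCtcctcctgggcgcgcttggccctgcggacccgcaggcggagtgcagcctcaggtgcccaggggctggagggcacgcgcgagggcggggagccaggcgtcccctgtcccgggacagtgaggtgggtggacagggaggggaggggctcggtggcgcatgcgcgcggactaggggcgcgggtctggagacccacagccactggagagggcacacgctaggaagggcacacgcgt
Esrra: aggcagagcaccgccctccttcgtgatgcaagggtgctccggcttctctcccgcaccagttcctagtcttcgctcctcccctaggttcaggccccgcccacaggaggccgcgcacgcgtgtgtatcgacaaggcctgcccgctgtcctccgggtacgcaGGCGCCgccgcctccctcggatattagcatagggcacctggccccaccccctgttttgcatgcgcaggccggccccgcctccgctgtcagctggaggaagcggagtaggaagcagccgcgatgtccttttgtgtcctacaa

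A RefSeq promoter window was found for 34 of the 40 members. AGGTCA on either strand occurred in 9 of 34 members (26.5%), beside 14.8% of the 10732 tested genes with a window and 18.1% of all 27025 genes in the table. GGCGCC, which reads the same on both strands, occurred in 10 of 34 (29.4%), beside 24.2% of tested genes and 13.4% of all genes. The ERR element TNAAGGTCA, which contains AGGTCA, occurred in 0 of 34, beside 0.895% of tested genes and 1.43% of all. The direct repeat of AGGTCA with 1 base between, the form bound by PPAR with its partner RXR, occurred in 0 of 34, beside 0.047% of tested genes and 0.048% of all. These letters describe the window alone and say nothing of binding.

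The PPAR-responsive and lipid droplet genes did not move as a block. Of 7, 2 rose in BMP2+DM against PBS, 4 rose in BMP2+DM against BMP2, and 1 rose and 2 fell in BMP2 against PBS. Acot2, a mitochondrial acyl-CoA thioesterase, had 29.4 and 26.5 CPM in the BMP2+DM libraries, 15.7 and 16.9 CPM in the BMP2 libraries and 17.4 and 18.5 CPM in the PBS libraries. BMP2+DM lay above both other groups. It rose in BMP2+DM against BMP2 (log2 fold change 0.78 ± 0.15, edgeR adjusted p = 0.00294) and against PBS (0.64 ± 0.15, adjusted p = 0.00465), the second lost without PBS 1 or BMP2+DM 1 (adjusted p = 0.0508 to 0.0534). Reads of Acot2 can be split with its near copy Acot1, with 27.7% of 50-base words shared.

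Angptl4, the secreted inhibitor of lipoprotein lipase, had 32.9 and 29.4 CPM in the BMP2+DM libraries, 20.0 and 21.5 CPM in the BMP2 libraries and 33.1 and 31.7 CPM in the PBS libraries. BMP2 stood low, and BMP2+DM and PBS overlapped. Angptl4 fell in BMP2 against PBS (log2 fold change −0.64 ± 0.14, edgeR adjusted p = 0.00286) and rose in BMP2+DM against BMP2 (0.59 ± 0.14, adjusted p = 0.0113), the rise being lost without BMP2 1 or BMP2+DM 1 (adjusted p = 0.0916 to 0.102). In BMP2+DM against PBS it was at −0.056 ± 0.13, adjusted p = 0.820. Ucp2, a mitochondrial carrier of the uncoupling protein family, had 20.4 and 16.6 CPM in the BMP2+DM libraries, 9.00 and 11.3 CPM in the BMP2 libraries and 14.3 and 20.0 CPM in the PBS libraries. It showed the same low BMP2 group and overlap of the other groups. Ucp2 fell in BMP2 against PBS (−0.75 ± 0.21, adjusted p = 0.0173), lost without PBS 2 or BMP2 1 (adjusted p = 0.167 to 0.235), and rose in BMP2+DM against BMP2 (0.87 ± 0.21, adjusted p = 0.0122), lost without BMP2 1 or BMP2+DM 1 (adjusted p = 0.113 to 0.137). In BMP2+DM against PBS it was at 0.12 ± 0.20, adjusted p = 0.735.

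Plin5, a lipid droplet coat protein that ties droplets to mitochondria, had 3.68 and 3.30 CPM in the BMP2+DM libraries, 3.18 and 4.11 CPM in the BMP2 libraries and 0.643 and 1.57 CPM in the PBS libraries. These rest on 9 to 43 counts a library, with PBS below the rest. Plin5 rose in BMP2+DM against PBS (log2 fold change 1.68 ± 0.48, edgeR adjusted p = 0.0188), lost without PBS 1 or BMP2+DM 1 (adjusted p = 0.0790 to 0.180), and in BMP2 against PBS (1.74 ± 0.48, adjusted p = 0.0183), lost without PBS 1 or BMP2 2 (adjusted p = 0.115 to 0.186). Pdk4, the kinase that shuts off pyruvate dehydrogenase, rose in BMP2+DM against BMP2 (0.35 ± 0.11, adjusted p = 0.0488), a call lost without PBS 1, PBS 2, BMP2 1, BMP2 2, BMP2+DM 1 or BMP2+DM 2 (adjusted p = 0.0552 to 0.327), with DESeq2 (adjusted p = 0.0732) and with 2 groups only (adjusted p = 0.0641). Plin2, the droplet coat found in most cells, had 67.9 and 69.0 CPM in the BMP2+DM libraries, 69.3 and 67.3 CPM in the BMP2 libraries and 69.1 and 73.9 CPM in the PBS libraries, with levels close together and no call. Ucp3, a relative of Ucp2 found mainly in muscle, was not called at 13 to 44 counts a library.

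**Figure D4:**
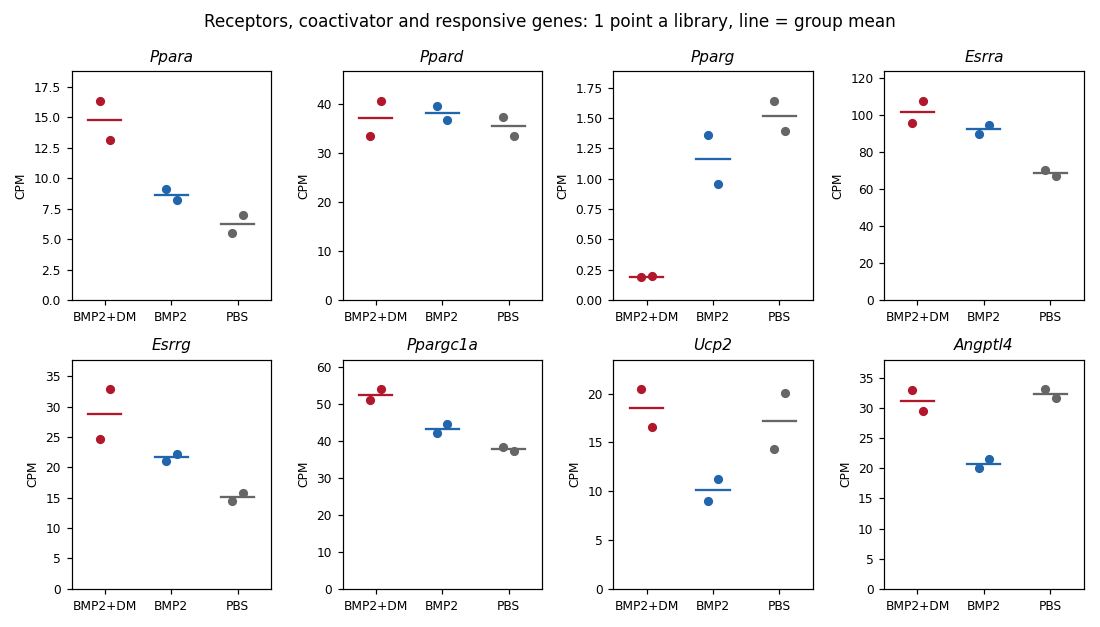
CPM of the PPAR receptors, Esrra, Esrrg, Ppargc1a, Ucp2 and Angptl4 in each library, 1 point a library with a line at the group mean; axes start at 0. Ppara, Esrra, Esrrg and Ppargc1a are highest in BMP2+DM and lowest in PBS, Pparg is lowest in BMP2+DM, and Ucp2 and Angptl4 are lowest in BMP2.

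The neighbouring pathways moved in differing ways. Of all tested genes, 9.38% rose and 11.5% fell in BMP2+DM against PBS. The shares were 4.28% and 4.44% in BMP2+DM against BMP2, and 6.55% and 9.29% in BMP2 against PBS. Of 16 tricarboxylic acid cycle genes, 14 rose in BMP2+DM against PBS, 0 in BMP2+DM against BMP2 and 11 in BMP2 against PBS, where 7 rose without BMP2 2. Of 21 nuclear-encoded oxidative phosphorylation genes, 18, 0 and 11 rose in the same comparisons, the last count being 7 without BMP2 2 and the second 1 without PBS 1 or PBS 2, and none of either list fell. At an unadjusted edgeR p under 0.05, 6 of the cycle genes and 5 of the oxidative phosphorylation genes were higher in BMP2+DM than in BMP2, and DESeq2 called 0 of each. Idh3a, a subunit of isocitrate dehydrogenase, rose in BMP2+DM against PBS (log2 fold change 0.68 ± 0.049, edgeR adjusted p = 1.06e-08) and in BMP2 against PBS (0.56 ± 0.049, adjusted p = 2.31e-07), beside 0.13 ± 0.048, adjusted p = 0.126 in BMP2+DM against BMP2. The median log2 fold change in BMP2+DM against BMP2 was 0.11 for the cycle and 0.082 for oxidative phosphorylation, beside 0.27 for the 40 members. The difference between these medians was not tested. Of 12 genes of the pyruvate branch, 7 rose in BMP2+DM against PBS, 1 in BMP2+DM against BMP2, and 6 rose and 1 fell in BMP2 against PBS. Without PBS 1 and BMP2 1 together, BMP2 against PBS gave 2, 5 and 2 rises for the cycle, oxidative phosphorylation and the pyruvate branch. Pdk2, a kinase that inhibits pyruvate dehydrogenase, fell in BMP2 against PBS (−0.43 ± 0.11, adjusted p = 0.00886) and rose in BMP2+DM against BMP2 (0.45 ± 0.11, adjusted p = 0.0129). The fall was lost without PBS 1 or BMP2 2 (adjusted p = 0.105 to 0.116), and the rise without BMP2 2 or BMP2+DM 2 (adjusted p = 0.0761 to 0.136).

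Other mitochondrial and peroxisomal fatty acid enzymes gave 6 rises of 23 in BMP2+DM against PBS, where 9.38% of all tested genes rose. They gave 4 in BMP2+DM against BMP2 (4.28% of all) and 1 in BMP2 against PBS (6.55%), with no fall. The last count was 2 without BMP2 1, BMP2+DM 1 or BMP2+DM 2, and without BMP2 1 there was 1 fall in BMP2+DM against BMP2. Crat, the carnitine acetyltransferase, rose in BMP2+DM against PBS (log2 fold change 0.69 ± 0.079, edgeR adjusted p = 3.79e-06) and against BMP2 (0.47 ± 0.079, adjusted p = 0.000716). Ech1, a dienoyl-CoA isomerase, rose in the same comparisons (0.36 ± 0.083, adjusted p = 0.00431, and 0.44 ± 0.084, adjusted p = 0.00242). Among 21 other uptake and triglyceride genes, 6 rose and 2 fell in BMP2+DM against PBS (9.38% and 11.5% of all tested genes). In BMP2+DM against BMP2, 4 rose and 1 fell (4.28% and 4.44% of all). BMP2 against PBS gave 2 rises and 4 falls (6.55% and 9.29% of all). The rises in BMP2+DM against PBS numbered 3 without PBS 1, PBS 2 or BMP2+DM 1, and the falls 1 without PBS 1 and 0 without PBS 2 or BMP2+DM 1. The rises in BMP2+DM against BMP2 numbered 2 without BMP2 1, BMP2 2 or BMP2+DM 2. In BMP2 against PBS the rises numbered 1 without PBS 1, PBS 2 or BMP2 1, and the falls 2 without PBS 2. Fabp5, the epidermal-type carrier, fell in BMP2 against PBS (−0.57 ± 0.089, adjusted p = 0.000185) and rose in BMP2+DM against BMP2 (0.98 ± 0.089, adjusted p = 1.09e-06). Pnpla2, the adipose triglyceride lipase, had the same signs (−0.37 ± 0.11, adjusted p = 0.0238, and 0.40 ± 0.11, adjusted p = 0.0235). For Pnpla2 the fall was lost without PBS 1, PBS 2 or BMP2 1 (adjusted p = 0.0817 to 0.200), and the rise without BMP2 1 or BMP2+DM 2 (adjusted p = 0.190 to 0.202). Cidea, a droplet protein, had the opposite ones (0.99 ± 0.18, adjusted p = 0.000874, and −1.29 ± 0.19, adjusted p = 0.000225).

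Of 9 genes of malonyl-CoA and fatty acid synthesis, 4 rose in BMP2+DM against PBS (9.38% of all tested genes). In BMP2+DM against BMP2, 1 fell (4.44% of all), and in BMP2 against PBS 4 rose (6.55% of all). Fasn, fatty acid synthase, rose in BMP2 against PBS (log2 fold change 0.56 ± 0.063, edgeR adjusted p = 4.15e-06) and fell in BMP2+DM against BMP2 (−0.36 ± 0.063, adjusted p = 0.00109). Among 17 RXR receptors and coregulators, 4 rose and 1 fell in BMP2+DM against PBS (9.38% and 11.5% of all tested genes). In BMP2+DM against BMP2, 2 fell (4.44% of all), and in BMP2 against PBS 2 rose (6.55% of all). Klf15, a factor known for metabolic control in heart, rose in BMP2+DM against PBS (1.30 ± 0.34, adjusted p = 0.0106), a call lost without PBS 1, PBS 2 or BMP2+DM 1 (adjusted p = 0.0556 to 0.268). The rises of synthesis genes in BMP2+DM against PBS numbered 1 without PBS 1 or BMP2+DM 2 and 2 without PBS 2, BMP2 1 or BMP2 2. Those of RXR receptors and coregulators numbered 1 without PBS 1 and 2 without BMP2+DM 1 or BMP2+DM 2, and their single fall was lost without PBS 1, PBS 2 or BMP2+DM 1. Their falls in BMP2+DM against BMP2 numbered 0 without BMP2 2 and 1 without any other single library. Their rises in BMP2 against PBS numbered 1 without BMP2 1 and 0 without PBS 1, PBS 2 or BMP2 2.

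**Figure D5:**
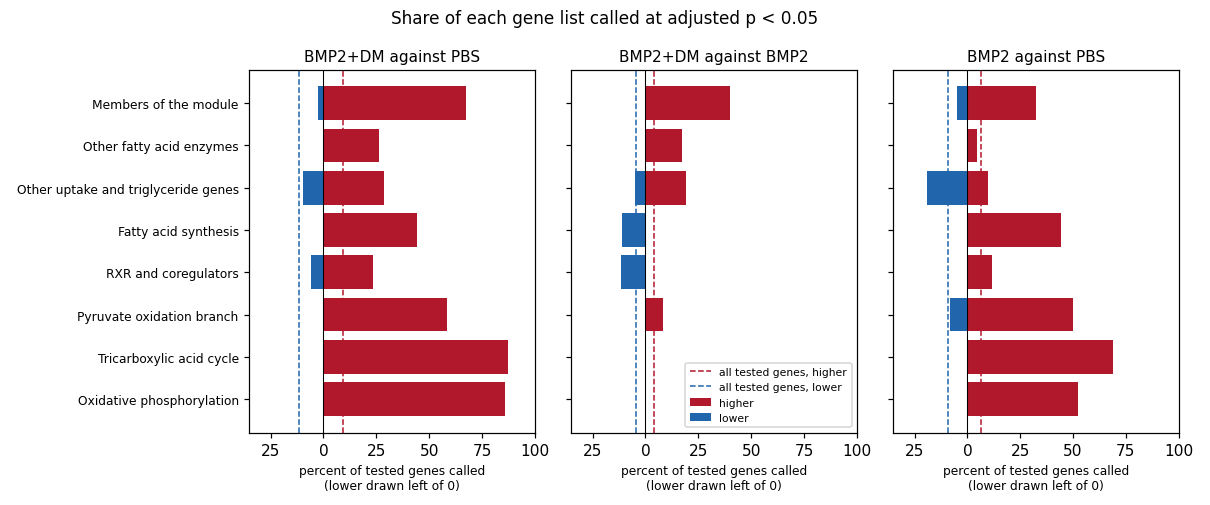
Percent of tested genes called higher (red, right of 0) or lower (blue, left of 0) in each list and comparison; dashed lines give the same percent over all tested genes. The tricarboxylic acid cycle and oxidative phosphorylation have 14 of 16 and 18 of 21 genes higher in BMP2+DM against PBS and no call in BMP2+DM against BMP2, where the module has 16 of 40 higher.

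Markers of cell types moved beside these genes. Over all tested genes, 9.38% rose and 11.5% fell in BMP2+DM against PBS. The shares were 4.28% and 4.44% in BMP2+DM against BMP2, and 6.55% and 9.29% in BMP2 against PBS. Of 10 cardiomyocyte markers, 7 fell and 0 rose in BMP2+DM against PBS, 4 rose and 0 fell in BMP2+DM against BMP2, and 9 fell in BMP2 against PBS. Without PBS 1 and BMP2 1 together, 6 fell, 3 rose and 7 fell in these comparisons. The summed cardiomyocyte level given above was thus lower in BMP2 than in PBS, where 13 members rose. Of 10 fibroblast markers, 3 rose and 6 fell in BMP2+DM against PBS, 3 rose and 6 fell in BMP2+DM against BMP2, and 2 rose and 6 fell in BMP2 against PBS. The fibroblast falls in BMP2 against PBS numbered 3 without PBS 2, and the rises in BMP2+DM against PBS numbered 1 without PBS 1 or BMP2+DM 2. Epicardial markers, 9 of 10 tested, summed to 117 to 119 CPM in BMP2+DM, 103 to 104 CPM in BMP2 and 181 to 186 CPM in PBS. Smooth muscle and pericyte markers, all 8 tested, summed to 2059 to 2150 CPM in BMP2+DM, 1975 to 2051 CPM in BMP2 and 3138 to 3189 CPM in PBS. Of these 8, 2 rose and 4 fell in BMP2+DM against PBS. Against BMP2, 2 rose and 2 fell, and in BMP2 against PBS 2 rose and 3 fell. With 1 library left out, the rises numbered 1 to 2, 0 to 2 and 0 to 2 in these comparisons. The falls numbered 3 to 4, 1 to 2 and 3. Leukocyte markers, 6 of 10 tested, summed to 64.9 to 68.1 CPM in BMP2+DM, 72.0 to 72.6 CPM in BMP2 and 95.3 to 97.5 CPM in PBS. The part of these shifts in the members' levels was not tested.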

How the data were processed

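Polyadenylated RNA of 6 libraries was sequenced. The authors deposited raw counts of reads for each gene symbol, 1 file a library, with no normalization. The tools named in the submitters' processing notes are STAR, HTSeq, Trimmomatic, FastQC and DESeq2, with the mm10 genome. Their versions, the annotation and the strand setting are not given in the sources used, and the labels' protocol names no strand-marking step. Summary lines that name no gene held 53.8% to 54.2% of each file and were left out. Chi-square per degree of freedom was taken over tested genes without the models of ribosomal repeats. It was 4.37 between the PBS libraries, 3.59 between the BMP2 libraries and 3.81 between the BMP2+DM libraries. These values are above sampling noise, so replicates were kept separate.

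Genes were filtered with filterByExpr (minimum count 10, minimum total 15). All 6 libraries were fitted with group means and no covariate in edgeR 4.0.16 (R 4.3.3, TMM factors, 3 residual degrees of freedom, common biological coefficient of variation 0.0872). The quasi-likelihood F test was adjusted by Benjamini-Hochberg over 14378 genes in each of 3 comparisons, with a threshold of 0.05. The standard error is the absolute log2 fold change over the square root of F. CPM use TMM-adjusted library sizes, and levels per kb divide by the union exon length of GENCODE vM21. Promoters came from RefSeq on GRCm38.p6. DESeq2 1.42.0 served as an alternative, beside other scaling, no filter, a replicate block, 2 groups only, and fits without 1 or 2 libraries. All 40 members are named; library values are given for those called at least once, up to 4 a step by smallest p, and for all receptors and coactivators. A few further members are given in the same way. Members and lists were chosen with earlier results of these data known.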

Additional observations from a re-analysis of the deposited data

How the results depend on the processing

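Of 1440 fits of single members under 12 alternatives, 1255 kept direction and side of the threshold, 130 lost a call, 20 gained one and 35 changed sign, all 35 among 15 results that were called in no fit. Size factors of DESeq2, DESeq2 itself, no filter, the replicate block and 2 groups only gave 23 to 30 members higher in BMP2+DM against PBS, 13 to 18 in BMP2+DM against BMP2 and 12 to 13 in BMP2 against PBS. Leaving out 1 library gave 20 to 27, 8 to 14 and 6 to 13 members higher, and 0 to 1, 0 and 1 to 3 lower; over all genes it gave 1845 to 2924 calls in BMP2+DM against PBS (3007 with all libraries), 656 to 1082 in BMP2+DM against BMP2 (1255) and 1331 to 2383 in BMP2 against PBS (2277). Without PBS 1 and BMP2 1 together, 14, 6 and 2 members were higher, 0 lower in each comparison, and 1374, 284 and 564 genes were called; both alternatives fit fewer samples. Of the calls, 18 of 27, 7 of 16 and 6 of 13 higher ones, and that of Angptl4 among the lower ones, passed in all 6 fits without 1 library. Deviations of same-numbered libraries correlated at −0.038 to 0.025 over the tested genes. Correlations near 0 show no dominant shift shared by number. They cannot decide whether same-numbered libraries were prepared together, which is not stated. With a replicate block, 28, 17 and 13 members were higher, 1, 0 and 2 lower, and 2960, 1226 and 2261 genes were called. In BMP2+DM against PBS the block lost Etfb (edgeR adjusted p = 0.0502) and added Eci1 and Eci2 (0.0478 and 0.0474). In BMP2+DM against BMP2 it added Acadvl (0.0345). At 2 to 44 counts a library, Pparg, Esrrb, Ucp3 and Plin5 show large changes only. The sign changes in fits without 1 library are given as the range of log2 fold change over those fits. In BMP2+DM against PBS the ranges were −0.18 to 0.28 for Slc27a1, −0.082 to 0.19 for Ppard, −0.11 to 0.37 for Ucp2 and −0.15 to 0.021 for Angptl4. In BMP2+DM against BMP2 they were −0.028 to 0.44 for Slc27a1, −0.0038 to 0.13 for Eci2, −0.19 to 0.085 for Ppard, −0.25 to 1.13 for Esrrb, −0.019 to 0.024 for Plin2 and −0.23 to 0.13 for Plin5. In BMP2 against PBS they were −0.040 to 0.038 for Cpt1a, −0.028 to 0.084 for Hadh, −0.12 to 0.061 for Decr1, −0.19 to 0.014 for Pdk4 and −0.41 to 0.39 for Ucp3. Without PBS 1 and BMP2 1 together, Ucp2 was at −0.11 in BMP2+DM against PBS, Ppard at 0.012 and Esrrb at −0.25 in BMP2+DM against BMP2, and Cpt1a at −0.058 and Ucp3 at −0.55 in BMP2 against PBS. Cpt1a in BMP2 against PBS was also at −0.0004 with DESeq2 size factors, −0.0005 with DESeq2, −0.0001 with no filter and −0.0009 with 2 groups only. The cause of these changes was not tested.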
